A study of Homo sapiens with 4 samples.

Results

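The genes described here are 10 members of the intermediate filament family, 4 of neurons (NEFL, NEFM, NEFH and INA), VIM and NES, and 4 keratins (KRT8, KRT18, KRT19 and KRT10). They were chosen by symbol, by a rule that sets no limit on their values, from the 24934 gene rows of a deposited expression table, and each stood on 1 row. The question was which lineage's filaments HEK-293 cells transcribe, and whether their levels moved when ZSCAN5 genes were targeted. HEK-293 is an established line derived from human embryonic kidney cells. All cells received siRNA at 10 nM with Lipofectamine RNAi MAX, and RNA was taken at 48 h. In the groups compared, the siRNA was ZSCAN5A si4, ZSCAN5A si5, ZSCAN5B si1 or a scrambled negative control, and no untransfected cells were analysed here. Each of the 4 groups was 1 mRNA library, so no replicate check exists, and a difference below compares libraries rather than treatments. Levels are in FPKM, a count of fragments corrected for transcript length and library size, which allows genes of different length to be set side by side.

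Intermediate filaments are rope-like polymers of the cytoskeleton, and which genes of the family a cell uses follows its lineage. Keratins form obligate pairs of 1 acidic type I and 1 basic type II chain and are the filaments of epithelia, with KRT8, KRT18 and KRT19 typical of simple epithelia such as the kidney tubule. VIM polymerizes by itself and is the filament of mesenchymal cells and of many cultured lines. Neurofilament proteins are typical of neurons, where they build and space the cytoskeleton of the axon.

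The siRNA target sites are shown because they define the siRNA groups. Each is the 21-base sense sequence, 5′ to 3′, with capitals on the 7 bases that pair with the seed (bases 2 to 8) of the guide strand.
si4, in ZSCAN5A: cgagaagaggtttACGTGTAa
si5, in ZSCAN5A: aagctagtcatccACAAGAGa
si1, in ZSCAN5B: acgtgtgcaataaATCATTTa
On GRCh37 the si4 site is at chr19:56733332-56733352 and the si5 site at chr19:56733307-56733327, both in the last of the 6 exons of ZSCAN5A. The si1 site is at chr19:56701591-56701611, in the last of the 5 exons of ZSCAN5B. All of these sites are on the minus strand. No filament member was close to a target, since the best match of each siRNA to any of the 10 canonical transcripts had 7 mismatches. The 3′ UTRs of the 10 members, 64 to 1855 bases long, held 0 matches to the si4 seed, 0 to the si5 seed and 0 to the si1 seed. Among 10923 expressed genes with a 3′ UTR, 3.41% held the si4 seed match ACGTGTA, 12.1% the si5 match ACAAGAG and 23.6% the si1 match ATCATTT.

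The targeted genes were checked before any comparison. ZSCAN5A stood at 0.730 FPKM in the si4 library, 0.713 in si5, 2.53 in si1 and 2.42 in the control, so it was at 30.2% and 29.5% of the control with its own siRNAs. ZSCAN5B stood at 0.0331, 0.0663, 0.0948 and 0.0903 FPKM in the same order. These values rest on about 6, 17, 16 and 15 fragments. The ratio of si1 to the control was 1.05 with a 95% counting interval of 0.486 to 2.28, so at this depth a fall to about the lower bound could not be told from no change. Because a fall was not seen, the si1 library is called below the library labelled ZSCAN5B knockdown. By the steps between low FPKM values, the si4, si5 and si1 libraries were 1.09, 1.54 and 1.02 times as deep as the control.

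All 10 genes were detected in every library, and filaments of all 3 lineages were present together. VIM was the most abundant, followed by KRT8, KRT18, KRT19 and NEFL, and NES was the least abundant. VIM ranked 190th among all gene rows in the control library and exceeded 99.0% of the rows detected there, KRT8 exceeded 97.8% and NEFL 90.2%. NES exceeded 33.4% and NEFH 39.1%. Between VIM and NES the mean levels over the 4 libraries differed 226-fold. The order of levels was the same in every library with a single exception. KRT10 and NEFM changed places, with ranges of 8.83 to 11.4 FPKM for KRT10 and 8.46 to 11.4 for NEFM, and KRT10 was the higher in 1 of the 4 libraries. Every other pair of neighbours in the order had ranges that did not overlap, although INA reached 8.45 FPKM, just under the lowest NEFM value of 8.46.

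**Figure D1:**
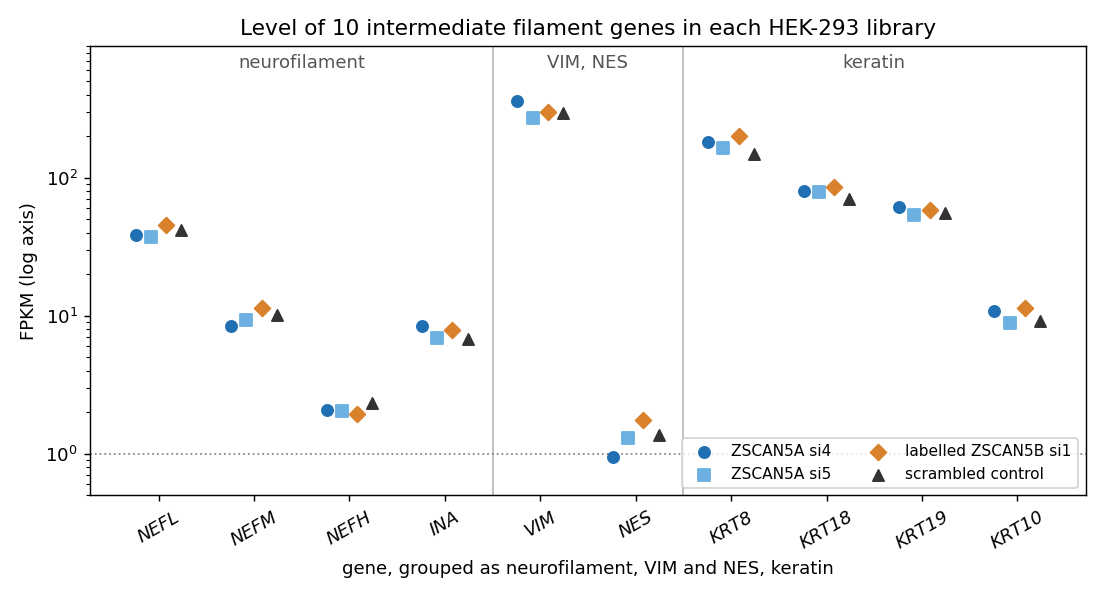
FPKM on a log axis for each of the 10 genes, with 1 point per library and the dotted line at 1 FPKM. VIM lies highest, from 269.7 to 359 FPKM, and NES lowest, from 0.956 to 1.76 FPKM. Among neighbours in the order, only the ranges of KRT10 and NEFM overlap.

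By class, the 4 keratins and VIM made up most of the members' signal. In the control library the keratins held 44.2% of the summed FPKM of the 10 genes, VIM 46.1%, the 4 neurofilament genes 9.50% and NES 0.216%. The keratin share was 44.4% with si4, 48.2% with si5 and 49.2% with si1. VIM held 47.8%, 42.8% and 41.3% in those libraries, and the neurofilament genes 7.69%, 8.77% and 9.23%. The neurofilament share was therefore highest in the control and the VIM share highest with si4. Summed keratin FPKM exceeded summed neurofilament FPKM 4.66-fold in the control and 5.34-fold to 5.77-fold in the siRNA libraries.

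**Figure D2:**
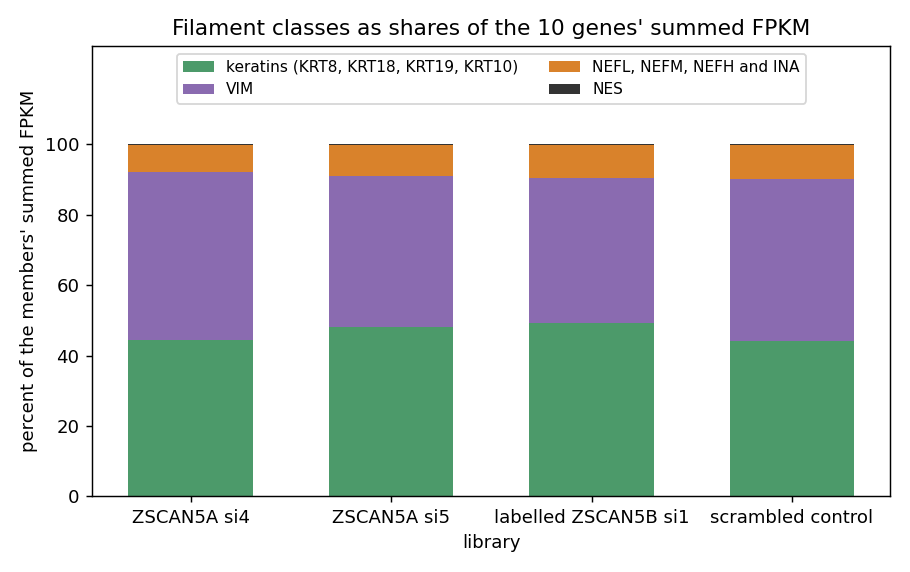
Stacked bars give each filament class as a percent of the summed FPKM of the 10 genes, 1 bar per library. Keratins hold 44.2% to 49.2%, VIM 41.3% to 47.8% and the neurofilament genes 7.69% to 9.50%, while NES is a thin line at the top.

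No member passed 1.5-fold in either comparison. For ZSCAN5A, the mean of the si4 and si5 libraries was set against the control, and 0 of 10 members passed, beside 3.79% of the 12993 genes tested (0.677% higher and 3.11% lower). For the library labelled ZSCAN5B knockdown, 0 of 10 passed, beside 4.01% of 12921 genes (0.844% higher and 3.17% lower). With so small a background share, a count of 0 among 10 genes says little about the members. The control library is shared by both, so the values of the comparisons are not independent. In the ZSCAN5A comparison 6 members were above the control and 4 below, with a median log2 ratio of 0.08 (all genes tested, -0.02, quartiles -0.19 and 0.13, 46.7% above the control). In the other comparison 9 members were above and 1 below, with a median of 0.20 (all genes tested, -0.01, quartiles -0.18 and 0.15, 48.5% above).

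The siRNAs to ZSCAN5A gave the same side of the control for 7 of the 10 genes. NEFL, NEFM, NEFH and NES were below the control with both si4 and si5, as were 41.8% of 12957 genes. INA, KRT8 and KRT18 were above it with both, as were 34.7% of genes. VIM, KRT19 and KRT10 were above the control with si4 and below it with si5, as were 13.2% of genes. For 5 members (INA, VIM, NES, KRT19 and KRT10) the gap between si4 and si5 was wider than the gap between their mean and the control, which held for 41.8% of genes. INA, KRT8 and KRT18 were above the control in all 3 siRNA libraries, and NEFH was below it in all 3, beside 30.1% and 36.3% of genes. Log2 ratios in these libraries also differed with transcript length and GC content. Less the median of genes in the same bins of both, the ZSCAN5A log2 ratio was -0.07 for NEFL, -0.09 for NEFM, NEFH and NES, 0.06 for KRT18 and -0.03 for KRT19, and the si1 log2 ratio was 0.02 for VIM, 0.53 for NES, 0.19 for KRT18 and 0.01 for KRT19. Each of these moved by more than 1.5 times or changed sign, and the other members moved less.

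**Figure D3:**
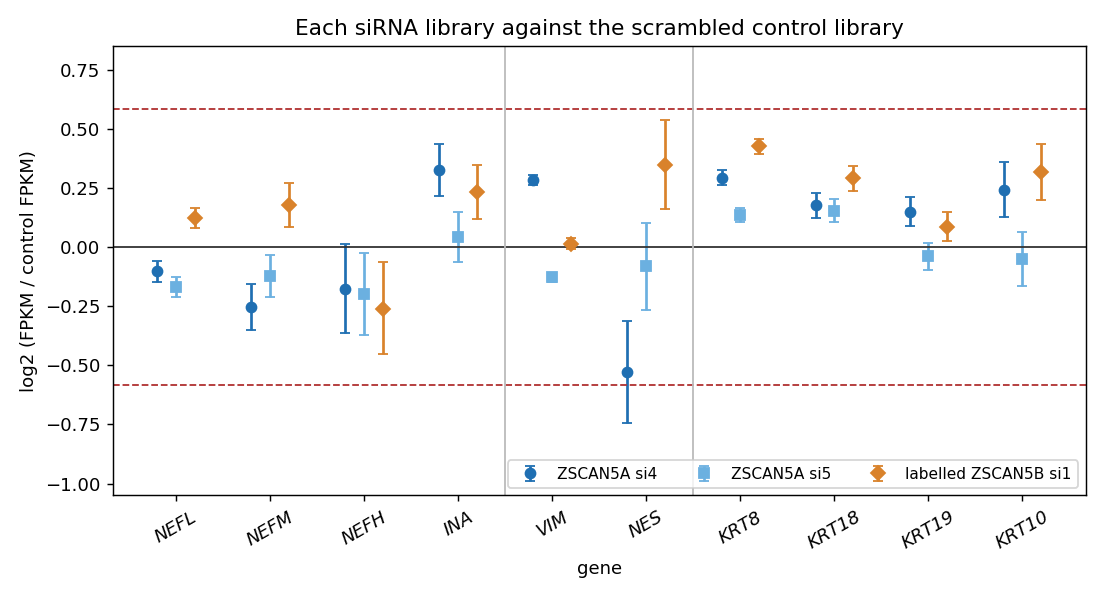
Log2 of each siRNA library over the scrambled control for the 10 genes, with bars for the approximate 95% counting interval and dashed lines at 1.5-fold. All 30 points lie between the dashed lines, the lowest at -0.53 (NES with si4) and the highest at 0.43 (KRT8 with si1).

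Among the neurofilament genes, NEFL encodes the light chain, the core on which the neurofilament is built. Its locus is at chr8:24808469-24814131 on the minus strand of hg19, with 5 exons in the canonical transcript of 3584 bases. NEFL was at 38.7 FPKM with si4, 37.0 with si5 and 45.2 with si1, against 41.6 in the control. The libraries of both ZSCAN5A siRNAs were thus lowest and the si1 library highest. The ratio to the control was 0.932 with si4 (95% interval 0.903 to 0.961), 0.889 with si5 (0.864 to 0.915) and 1.09 with si1 (1.06 to 1.12). These intervals come from approximate fragment numbers, about 8015 for NEFL in the control, and cover counting error alone, not the spread between cultures. On the log2 scale the mean of si4 and si5 was at -0.14 and si1 at 0.12.

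NEFM, the medium chain with a long side arm, lies 31862 bases from NEFL, at chr8:24771274-24776606 on the plus strand. Its values were 8.46 FPKM with si4, 9.26 with si5 and 11.4 with si1, against 10.1 in the control. This was the pattern of NEFL, with both ZSCAN5A siRNA libraries under the control and si1 over it. The log2 ratio was -0.19 for ZSCAN5A and 0.18 for si1. NEFM amounted to 24.2% of NEFL in the control and to 21.9%, 25.1% and 25.2% with si4, si5 and si1.

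NEFH, the heavy chain, is at chr22:29876181-29887277 on the plus strand. It was measured at 2.07 FPKM with si4, 2.04 with si5 and 1.96 with si1, against 2.34 in the control. The control was the highest library and the siRNA libraries were close together. Of the 10 genes NEFH alone was below the control with si1, at a log2 ratio of -0.26, and ZSCAN5A gave -0.19. About 478 fragments supported it in the control, and the interval of the si4 ratio, 0.777 to 1.01, reached 1. In the control NEFH was 5.64% of NEFL, and in the siRNA libraries 4.33% to 5.52%.

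INA, alpha-internexin, a neuronal filament that co-assembles with the neurofilament triplet, is at chr10:105036920-105050108 on the plus strand. INA reached 8.45 FPKM with si4, 6.95 with si5 and 7.94 with si1, against 6.75 in the control. Of the neuronal genes it was the one with the control lowest. Its ratio to the control was 1.251 with si4 (1.16 to 1.35), 1.03 with si5 (0.956 to 1.11) and 1.17 with si1 (1.09 to 1.27). INA amounted to 16.2% of NEFL in the control and to 21.8%, 18.8% and 17.5% with si4, si5 and si1. The other genes of this type were SYNM, synemin, and NES, and all 6 type IV filament genes had a mean level above 1 FPKM. SYNM was at 5.17, 4.98, 6.07 and 6.56 FPKM with si4, si5 and si1 and in the control, respectively.

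VIM, vimentin, lies at chr10:17270258-17279592 on the plus strand and has 10 exons. It stood at 359 FPKM with si4, 269.7 with si5 and 298 with si1, against 295 in the control. The si4 library was the highest and the si5 library the lowest, and the control lay close to si1. The ratio to the control was 1.22 with si4 (1.20 to 1.23), 0.915 with si5 (0.902 to 0.928) and 1.01 with si1 (0.995 to 1.03). Opposite sides of the control with siRNAs to the same gene left a log2 ratio of 0.09 for their mean, and si1 gave 0.01. VIM carried the most fragments of the 10, about 34161 in the control, so its counting intervals were the narrowest, while the log2 ratio of si5 to si4 was -0.41. Among type III filaments, VIM held 98.5% to 99.0% of the summed FPKM. The rest was PRPH, peripherin of peripheral neurons, at 2.93 to 3.62 FPKM, with the muscle filament DES at 0.301 to 0.553 FPKM and the astrocyte filament GFAP at 0.119 to 0.180 FPKM.

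NES, nestin, a filament of neural progenitors that needs a partner such as vimentin to polymerize, is at chr1:156638556-156647189 on the minus strand. It was found at 0.956 FPKM with si4, 1.30 with si5 and 1.76 with si1, against 1.38 in the control. NES varied the most of the 10 genes, with the highest library 1.84 times the lowest. That range was wider than in 97.8% of the 12411 genes at 1 FPKM or above in every library. NES, at 0.956 FPKM with si4, is not among those genes. The median of those genes was 1.21 times (quartiles 1.14 and 1.32). Against the control NES was at 0.693 with si4 (0.597 to 0.806), 0.946 with si5 (0.833 to 1.07) and 1.27 with si1 (1.12 to 1.45). Its log2 ratio was -0.29 for ZSCAN5A and 0.35 for si1. The NES transcript is long, 5568 bases, and genes in the same bins of length and GC content had a median log2 ratio of -0.19 for ZSCAN5A and -0.18 for si1.

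KRT8, the type II chain of simple epithelia, was at 181 FPKM with si4, 163 with si5 and 199 with si1, against 148 in the control. The control was the lowest library and si1 the highest. The ratio was 1.22 with si4 (1.20 to 1.252), 1.10 with si5 (1.08 to 1.12) and 1.34 with si1 (1.31 to 1.37). At a log2 ratio of 0.43, the si1 value of KRT8 was above that of 97.6% of the genes tested, and it was the largest rise over the control among the members, still under the fold limit. For ZSCAN5A the log2 ratio was 0.22, above 86.5% of genes tested.

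KRT18, the type I partner of KRT8, was at 79.5 FPKM with si4, 78.3 with si5 and 86.2 with si1, against 70.4 in the control. As for KRT8, the control was lowest and si1 highest, and si4 and si5 were nearly equal. The ratios were 1.13 with si4 (1.09 to 1.17), 1.11 with si5 (1.08 to 1.15) and 1.22 with si1 (1.18 to 1.27). KRT8 exceeded KRT18 2.102-fold in the control and 2.28-fold, 2.08-fold and 2.31-fold with si4, si5 and si1.

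The KRT8 and KRT18 loci of the table, chr12:53290971-53343650 on the minus strand and chr12:53342655-53346685 on the plus strand, overlap by 996 bases. Their canonical transcripts are 44041 bases apart, and the overlap comes from the long form of the KRT8 locus. The libraries were made with a stranded kit, but whether strand was used in counting is not given in the sources used here. GENCODE lists 51 pseudogenes of KRT8 and 67 of KRT18, of which the table holds 1 each, so reads shared with such copies make the levels of both genes uncertain. The pseudogenes of KRT8, KRT18 and KRT19 in the table reached at most 0.0465 FPKM.

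KRT19, a small type I keratin of simple and ductal epithelia, is at chr17:39679869-39684641 on the minus strand. Its level was 61.2 FPKM with si4, 53.7 with si5 and 58.5 with si1, against 55.2 in the control. This was the steadiest of the 10 genes, with the highest library 1.14 times the lowest, and the si5 library just under the control. The ratios to the control were 1.11 (1.06 to 1.16), 0.974 (0.936 to 1.01) and 1.06 (1.02 to 1.11) with si4, si5 and si1. KRT8 exceeded the sum of its simple-epithelial partners KRT18 and KRT19 1.18-fold in the control and 1.23-fold to 1.37-fold in the siRNA libraries, so that the type II and type I chains were of like summed level.

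KRT10, the type I keratin of differentiating epidermis, is at chr17:38974369-38978863 on the minus strand. KRT10 was at 10.8 FPKM with si4, 8.83 with si5 and 11.4 with si1, against 9.15 in the control. The si4 and si1 libraries were above the control and si5 below it. The ratio was 1.18 with si4 (1.09 to 1.28), 0.966 with si5 (0.893 to 1.05) and 1.24 with si1 (1.15 to 1.35). Its usual type II partner, KRT1, was listed at 0 in all 4 libraries. The KRT10 locus overlaps that of TMEM99 by 3520 bases, and TMEM99 was at 10.2 to 11.8 FPKM, so reads in the overlap could be assigned to either gene.

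The 10 genes held 97.6% of the summed FPKM of the family without lamins in the control library. Of the 70 family genes in the table, 17 had a mean of 1 FPKM or above, 50 were under 0.1 FPKM in every library, and 26 of those 50 were listed at 0 in every library. Among 55 keratin genes only KRT8, KRT18, KRT19, KRT10 and KRT222 had a mean of 1 FPKM or above. KRT8 was 99.9% of the type II keratin FPKM in each library, and KRT18, KRT19 and KRT10 together were 97.0% to 97.7% of the type I FPKM. KRT17, a keratin of basal and stressed epithelia, came after KRT222, at 0.812 to 1.12 FPKM. KRT7, a type II keratin of simple and ductal epithelia, was at 0.0105, 0.0444, 0.0225 and 0.0571 FPKM, or 1, 6, 2 and 5 fragments with si4, si5 and si1 and in the control, respectively. The basal epidermal pair KRT5 and KRT14 was listed at 0 in the siRNA libraries, with 1 fragment each in the control.

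**Figure D4:**
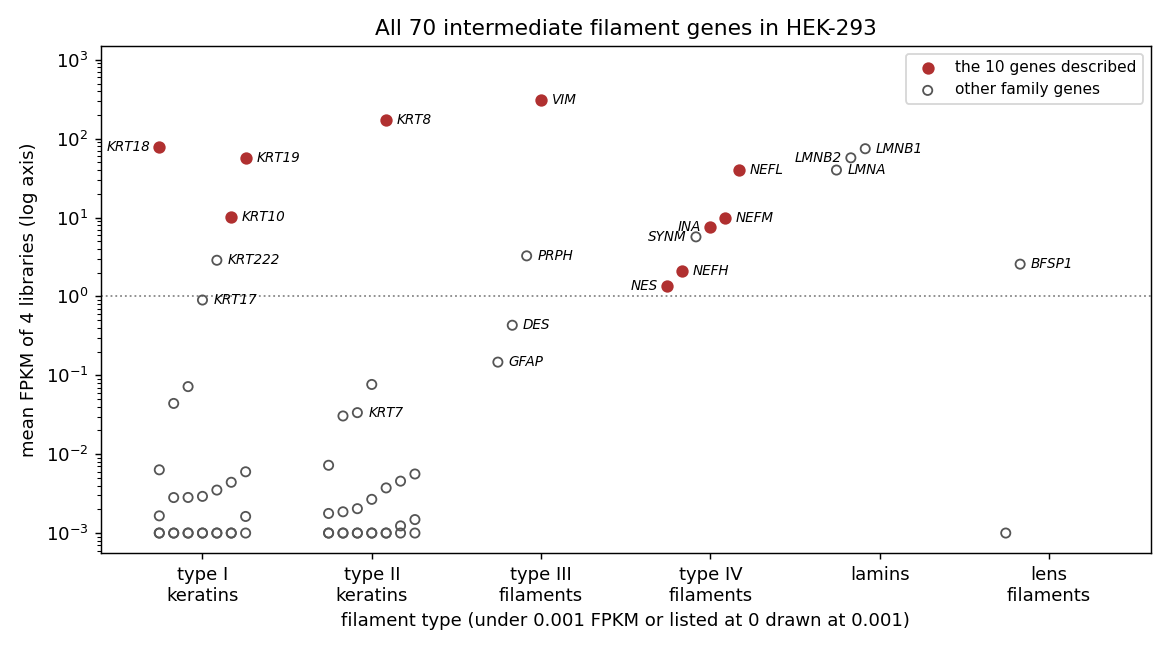
Mean FPKM of the 4 libraries on a log axis for all 70 family genes by filament type, with the 10 genes in red and the dotted line at 1 FPKM. Most keratins lie near the lowest level drawn, 0.001 FPKM, where points overlap, while VIM, KRT8, KRT18, KRT19 and NEFL lie far above.

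Other family genes at 1 FPKM or above were the lamins, PRPH, SYNM, BFSP1 and KRT222. The lamins form the nuclear lamina of nearly all cells. LMNB1 was at 66.6, 76.5, 68.8 and 86.5 FPKM with si4, si5 and si1 and in the control, respectively, LMNB2 at 52.2 to 66.8 FPKM and LMNA at 38.3 to 43.2 FPKM. BFSP1, a lens filament gene, was at 2.16 to 2.77 FPKM, and its lens partner BFSP2 was listed at 0. Of these 7 genes 1 passed the fold limit. KRT222 was at 2.93, 2.54 and 3.83 FPKM with si4, si5 and si1 and at 2.202 in the control, a log2 ratio of 0.80 for si1 and 0.31 for ZSCAN5A.

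Most of the listed genes that attach filaments to junctions or turn them over were expressed along with the keratins. Of 17 genes of desmosomes and hemidesmosomes, the junctions that anchor keratins, 10 had a mean of 1 FPKM or above. PERP was at 38.2 to 43.4 FPKM, the desmosomal cadherin DSG2 at 40.1 to 41.6 FPKM and desmoplakin, DSP, at 31.6 to 33.6 FPKM. In the ZSCAN5A comparison 0 of 10 tested passed upwards and 1 downwards. That gene was DSC3, at 7.93 FPKM with si4, 14.3 with si5 and 17.2 in the control, and it passed with si4 alone but not with si5 alone. The median log2 ratio of the 10 was -0.04 in both comparisons. Of the 8 tested plakins and linkers, EPPK1, epiplakin, passed downwards in both comparisons, at 1.47, 1.27 and 1.35 FPKM in the siRNA libraries and 2.14 in the control, although si4 alone did not pass. The median of those 8 was -0.22 for ZSCAN5A and -0.16 for si1. Neither these medians nor the EPPK1 calls were corrected for transcript length and GC content, with which log2 ratios differed in these libraries. By the mean of the 4 libraries the most abundant of that list were SPECC1, at 9.76 to 12.02 FPKM, and the cytoskeletal linkers MACF1, at 9.37 to 11.6 FPKM, and DST, at 9.21 to 10.8 FPKM, and their ranges overlapped. Of the 9 tested genes listed under filament turnover and chaperones, 0 passed in either comparison, with medians of 0.10 and 0.07. Among the most abundant of these were TBCB, a cofactor of tubulin folding rather than of filaments, at 150.1 to 169 FPKM, and STUB1 at 54.7 to 63.97 FPKM.

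Marker genes of several lineages were expressed in the same libraries. Of 17 neuronal markers 10 had a mean of 1 FPKM or above, and UCHL1 was at 316 to 388 FPKM, ENO2 at 25.4 to 42.9 FPKM and DPYSL3 at 14.8 to 18.7 FPKM. The neuron-restricted DCX, STMN2 and ELAVL3 had 4 fragments or fewer in any library. SYP and GAP43 passed the fold limit upwards in both comparisons, with log2 ratios of 1.09 and 0.71 for ZSCAN5A and 0.79 and 0.84 for si1. SYP was at 6.18 FPKM with si4, 2.75 with si5, 3.63 in the si1 library and 2.102 in the control, and GAP43 at 1.43, 1.33, 1.51 and 0.842 FPKM. SYP did not pass with si5 alone, whereas GAP43 passed with either ZSCAN5A siRNA. GAP43 met the limit of 1 FPKM only in the siRNA libraries, where it was the higher, so its call depends on that limit. Of the 10 neuronal genes tested, 8 were above the control and 2 below it for ZSCAN5A, with a median log2 ratio of 0.29. For si1, 7 were above and 3 below, with a median of 0.23. Of all genes tested, 46.7% and 48.5% were above the control in these comparisons. Both tallies include GAP43. The 2 genes below for ZSCAN5A were ENO2, at a log2 ratio of -0.50, and NCAM1, at -0.23. The ZSCAN5A values use the mean of si4 and si5, which could lie on opposite sides of the control. SNAP25 was at 4.07 FPKM with si4, 1.86 with si5 and 2.22 in the control. The list was not summarised with either ZSCAN5A siRNA alone.

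Of 13 epithelial markers 7 had a mean of 1 FPKM or above, led by EPCAM at 84.3 to 102 FPKM, MAL2 at 42.3 to 51.1 FPKM and ESRP2 at 9.43 to 10.9 FPKM. E-cadherin, CDH1, was at 3.17 to 3.77 FPKM, and the epithelial transcription factor GRHL2 was listed at 0 in all 4 libraries. None of the 7 epithelial markers tested passed the fold limit, and their median log2 ratio was -0.04 for ZSCAN5A and 0.10 for si1. Markers under 1 FPKM in every library were not tested. Of 13 mesenchymal markers 8 had a mean of 1 FPKM or above. SPARC was at 32.1 to 40.5 FPKM, FN1 at 29.7 to 43.2 FPKM and N-cadherin, CDH2, at 33.8 to 35.1 FPKM, while COL1A2 was listed at 0. ZEB1, a repressor of epithelial genes, passed upwards in both comparisons, at 6.14, 5.25 and 5.01 FPKM in the siRNA libraries and 3.33 in the control. The median log2 ratio of the 8 mesenchymal genes tested was -0.16 for ZSCAN5A and -0.15 for si1. The medians of the neuronal, epithelial and mesenchymal lists, and the calls of marker genes, were not corrected for transcript length and GC content.

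**Figure D5:**
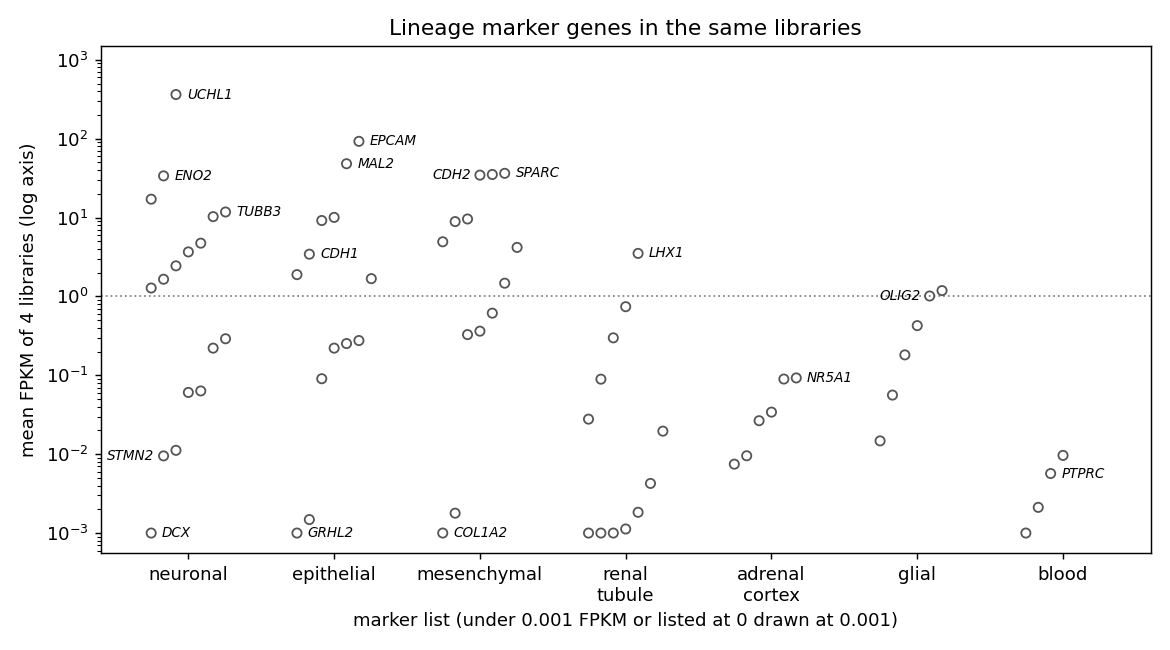
Mean FPKM of the 4 libraries on a log axis for the genes of 7 marker lists, with the dotted line at 1 FPKM and a lowest level drawn of 0.001 FPKM. Neuronal, epithelial and mesenchymal lists each span from 0.001 FPKM to above 30 FPKM, and the adrenal cortex and blood lists lie wholly under 1 FPKM.

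Differentiated kidney markers were under 1 FPKM in every library. Of 12 renal tubule genes only LHX1, a transcription factor of early kidney, had a mean above 1 FPKM, at 3.28 to 4.17 FPKM. PAX2, also of early kidney, was at 0.584, 0.615 and 0.608 FPKM in the siRNA libraries and 1.16 in the control, which passed downwards in both comparisons. It met the limit of 1 FPKM only through the control, where it was the higher, so this call too depends on the limit. The tubule water channel AQP1 was at 0.248 to 0.355 FPKM, UMOD was listed at 0, PAX8 was at 0.0147 to 0.0398 FPKM and NPHS1 at 0.0106 to 0.0275 FPKM. The 6 adrenal cortex genes together summed to 0.185 to 0.316 FPKM, the 4 blood genes to 0.00337 to 0.0361 FPKM and the 6 glial genes to 2.65 to 3.28 FPKM. Neurofilament, keratin and vimentin signal thus came with markers of several lineages in the same RNA. In bulk RNA, fewer cells of a type and less RNA per cell cannot be told apart, nor can cells that express several filaments from a mixture of cells.

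The genes whose pattern was nearest to that of the leading member of each class were found by the Euclidean distance over 3 log2 ratios to the control, among 12411 genes. For NEFL they were NKD2, at a distance of 0.0094, SLC24A6 at 0.027 and CDK16 at 0.030. KRT8 was followed most closely by LTV1 at 0.018, EBPL at 0.022 and COPS5 at 0.024. VIM had fewer close genes, LOC284385 at 0.048, FGFR1OP at 0.050 and PDLIM7 at 0.051. Within a distance of 0.1 there were 81 genes for NEFL, 82 for KRT8 and 51 for VIM, and with 3 ratios from 4 libraries such likeness is a description only.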

How the data were processed

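The authors trimmed the reads with Trimmomatic 0.30, aligned them to hg19 with TopHat2 2.1.0 and computed FPKM with Cufflinks 2.2.1, after base calling with CASAVA 1.8.2, per the submitters' processing notes. They deposited 1 table of FPKM values with the symbol and locus of 24934 gene rows and a column for each of 4 libraries, and 0 other columns of per-sample values. The labels name a TruSeq stranded mRNA kit and the study's methods a KAPA stranded mRNA kit. FPKM depend on the gene model used for length and on how reads shared by overlapping genes or copies were assigned, and a value of 0 is given as listed at 0.

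FPKM values were used as deposited. Levels were compared as ratios, with no pseudocount. The study's methods take si4 and si5 as a group against the control. Here their FPKM were averaged, and si1 was set against the control singly. The fold and FPKM limits are those the methods give for ZSCAN5B, used here for both. A gene was tested where 1 FPKM was reached in any library compared and neither side was 0, and called above 1.5-fold. With 1 library per siRNA, the comparisons rest on ratios, and p-values come only from limma as an alternative for ZSCAN5A. The adjusted p-value that the methods add for ZSCAN5A was not repeated. Relative depth was found from 3007 genes under 0.3 FPKM, as the depth at which most values stood in whole-number proportions (numbers up to 12, tolerance 0.03%). This held for 48.6% to 55.3% of the genes, against 0.665% to 0.765% at a typical other depth. Fragment numbers of the members are approximate, from FPKM, depth and canonical transcript length, and their ratios have 95% Clopper-Pearson intervals for counting error only. Whole fragments were recovered for 1257 of 1745 genes under 0.1 FPKM, with no number above 40.

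The members and gene lists were chosen with earlier results of these data known. Named genes were the members, the targeted genes, other filament genes with a mean of at least 1 FPKM, the 3 most abundant and all called genes of each list, and the 3 genes nearest in pattern to NEFL, VIM and KRT8. KRT17, KRT7, KRT1, KRT5, KRT14, DES, GFAP, BFSP2, CDH1, NCAM1, SNAP25, ITGA6, ITGB4, COL17A1, AQP1, TMEM99 and the markers given as at or near 0 were added after their values were seen. Some genes of the lists are not reported here. Positions are 1-based on hg19, and transcripts, UTRs and pseudogenes came from GENCODE lifted to GRCh37. The siRNA target sequences came from the study's supplement. Python 3.11.15, NumPy 2.4.6, pandas 2.3.3, SciPy 1.17.1, matplotlib 3.10.9 and, for 1 alternative, limma 3.58.1 in R 4.3.3 were used. Scripts were tested on simulated data. Alternatives covered the expression limit, pseudocount, scaling, fold limit, single ZSCAN5A siRNAs and limma, and removal of the median ratio of genes alike in length and GC content, which was chosen after the data were seen. ChIP-seq and qRT-PCR of the study were not analysed here.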

Additional observations from a re-analysis of the deposited data

Results flagged for a closer look

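NEFL, NEFM and NES were below the control with both ZSCAN5A siRNAs and above it in the library labelled ZSCAN5B knockdown. On the log2 scale, si1 exceeded the mean of both ZSCAN5A libraries by 0.26 for NEFL, 0.36 for NEFM and 0.64 for NES. These differences were not tested, since each siRNA has 1 library. Such opposite sides were found for 3 of the 10 members and for 10.1% of 12890 genes.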

How the results depend on the processing

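No alternative took a member past the 1.5-fold limit. Pseudocounts, other expression limits and a higher fold limit could not have done so. The scalings, single ZSCAN5A siRNAs and the length and GC correction could. With a log2 limit of 0.32 instead of 0.58, 2 members passed in the library labelled ZSCAN5B knockdown, KRT8 at 1.34 times and NES at 1.27 times the control, beside 19.5% of genes tested, while 0 passed in the ZSCAN5A comparison, beside 18.5%. Without VIM, the neurofilament share of the members' summed FPKM in the control was 17.6% instead of 9.50%, and the keratin share 82.0% instead of 44.2%. A pseudocount added to both sides cannot change the sign of a ratio, so those settings do not check direction. The sign changed for 3 of 10 member ratios with si5 alone and 0 of 10 with si4 alone. It changed for 1 of 20 under the length and GC correction and 0 of 20 under each scaling. With si5 alone the genes that changed sign were VIM, at a log2 ratio of -0.13, KRT19 at -0.04 and KRT10 at -0.05. For ZSCAN5A, KRT19 changed sign also under the length and GC correction, at -0.03. That correction was chosen after seeing the data and covered 95.3% and 95.4% of the genes tested. Median-ratio and upper-quartile scaling moved the median log2 ratio of all genes to between -0.01 and 0.00 and changed the sign of 0 members. Summed FPKM was 546239, 539502 and 537181 with si4, si5 and si1, against 488036 in the control. Scaling to an equal sum would lower every ratio to the control, and the side of the control was not checked under that scaling. limma on log2(FPKM + 1), with si4 and si5 as 2 samples against the 1 control, which is assumed to vary like them, called 0 of 10 members, with adjusted p-values from 0.477 to 0.874, and 10 of 13044 genes; unadjusted p-values under 0.05 were found for 0 members and 1618 genes. KRT222 and EPPK1 in the si1 comparison and DSC3 and EPPK1 in the ZSCAN5A comparison, 2 genes in each, were the family and partner genes called, and the count was 2 under both scalings. No paired analysis was possible because each group has 1 library. The depth limits KRT7 and other genes with a few fragments, whose order between libraries cannot be read.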
